A study of Homo sapiens with 16 samples.

Results

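Binding of p65 was read at 10 genes of mucosal innate defence, out of 20007 protein-coding genes in the annotation. The genes were listed by name: LCN2, SAA1, SAA2, C3, CFB, PIGR, NOS2, DUOX2, DUOXA2 and DEFB4A. Every 200-bp bin from 30 kb upstream to 10 kb downstream of each gene (GRCh38) was read, 2399 bins in all. A bin was listed in a group when the mean of its 3 ChIP libraries was at least 2 and at least 4 times the input of the same cells. The values are p65 ChIP signal, the number of tags covering a base after each library was scaled to 10000000 tags. Of the 2399 bins, 19 were listed in at least 1 group, against 12570 of 15441361 bins in the genome. The genome's bins include those far from any gene, and the same windows of all genes were not counted. No excess is therefore read from these counts.

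HT29 and SW480 are human colon cancer cell lines. Each was used in 2 forms, with transduced estrogen receptor beta (ERβ) or as its mock control (mock). The 4 groups were thus HT29 mock, HT29 ERβ, SW480 mock and SW480 ERβ, with 3 p65 ChIP libraries each, and each group had 1 input track. All cells received TNFα at 30 ng/ml for 30 minutes and were crosslinked with DSG and then formaldehyde. No estrogen was added, so ERβ was exogenous and without added ligand, and no group went without TNFα. The input tracks carry the TNFα and antibody labels of the ChIP libraries, and those of the ERβ lines were taken from another deposited dataset. The tracks hold no expression, so neither transcript levels of these genes nor markers of the cell lines could be read from them. The signal over coding exons of ESR2, the ERβ gene, relative to its introns was 3.9 to 6.34 in HT29 ERβ against 1.09 to 1.25 in HT29 mock, and 2.15 to 2.61 in SW480 ERβ against 1.3 to 1.57 in SW480 mock, which matched the labels of the ChIP libraries. The inputs gave 1.99 in HT29 ERβ against 1.16 in HT29 mock, and 1.67 in SW480 ERβ against 1.44 in SW480 mock. The SW480 ERβ input was thus little apart from the SW480 mock libraries.

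p65 (RELA) is the transactivating subunit of the most common NFκB dimer. TNFα releases this dimer from its IκB inhibitors in the cytoplasm, and it then enters the nucleus and binds κB sites in promoters and enhancers. In the gut and other mucosae, many antimicrobial and acute-phase genes of the epithelium are induced by NFκB. These include proteins that withhold iron, complement factors, enzymes that make reactive oxygen and nitrogen, the receptor that carries secretory antibodies and antimicrobial peptides.

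The 19 listed bins merged into 11 regions, and 8 of these regions held a match to the κB consensus, a motif of 10 bases searched on both strands with overlapping matches kept. The following stretches are the GRCh38 reference at 5 of these regions, each read in the direction of the member gene, with the κB match in capitals. Bases annotated as untranslated regions are left out. Exons without a coding or untranslated annotation are kept, as in the DUOXA2 stretch. They are shown so that the κB match can be seen in its place. The DUOX2 match lies in the neighbouring listed bin and not in the bin compared between groups, and the C3 stretch is a listed bin for which no test is given.
LCN2 promoter (chr9:128149265-128149452, plus strand): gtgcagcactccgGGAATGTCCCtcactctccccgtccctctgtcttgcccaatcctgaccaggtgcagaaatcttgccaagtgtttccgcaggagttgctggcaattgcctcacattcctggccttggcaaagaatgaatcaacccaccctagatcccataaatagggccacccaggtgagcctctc
C3 promoter (chr19:6720801-6721000, minus strand): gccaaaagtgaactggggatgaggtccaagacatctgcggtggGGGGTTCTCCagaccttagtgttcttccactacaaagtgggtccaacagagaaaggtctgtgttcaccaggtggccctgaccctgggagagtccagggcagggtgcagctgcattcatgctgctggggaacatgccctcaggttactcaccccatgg
PIGR intron (chr1:206941968-206942167, minus strand): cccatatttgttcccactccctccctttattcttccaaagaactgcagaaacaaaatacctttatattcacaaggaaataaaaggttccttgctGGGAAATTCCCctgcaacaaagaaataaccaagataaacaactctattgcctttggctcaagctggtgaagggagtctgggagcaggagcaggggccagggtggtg
DUOX1 exon upstream of DUOX2 (chr15:45135040-45135239, minus strand): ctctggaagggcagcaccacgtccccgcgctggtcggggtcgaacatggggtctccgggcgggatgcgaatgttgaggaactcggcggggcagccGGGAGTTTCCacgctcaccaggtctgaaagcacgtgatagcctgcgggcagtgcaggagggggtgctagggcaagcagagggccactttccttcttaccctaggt
DUOXA2 gene body (chr15:45116801-45117000, plus strand): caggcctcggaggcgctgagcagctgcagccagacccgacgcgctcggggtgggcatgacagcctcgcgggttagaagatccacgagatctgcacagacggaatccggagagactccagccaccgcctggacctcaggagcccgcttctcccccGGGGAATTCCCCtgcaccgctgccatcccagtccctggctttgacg
The match of LCN2 lies at chr9:128149278-128149287, and those of PIGR and DUOXA2 are overlapping matches. Per bin, 9 of the 19 listed bins (47.4%) held a κB match, against 38.6% of the 12570 listed bins of the genome. The AP-1 motif (TGACTCA or TGAGTCA) was found in 1 of the 19, at TRIP10 in the window of C3, against 9.88% of the 12570. Among the RefSeq promoters (GRCh38.p14, 300 bp) the κB consensus was present in 9.43% of 35116, and of the 5 members found in that table it was present in PIGR and LCN2.

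The listed bins were unevenly spread over the groups. Of the 19, 10 were listed in HT29 mock, 6 in HT29 ERβ, 1 in SW480 mock and 13 in SW480 ERβ. Over the genome the order of the groups was the same, with 48.7%, 32.4%, 11.9% and 76.2% of the 12570 listed bins. By region, 5 of 11 were listed in SW480 ERβ alone (SAA1, SAA2, a bin between them, the C3 promoter and DUOXA2) and 2 in the HT29 groups alone (PIGR and the region upstream of DUOX2). The LCN2 promoter was listed in 3 groups, with SW480 mock missing. In bins, 9 of 19 were listed in SW480 ERβ alone, against 43.6% of the genome's listed bins. No share over the genome is given for the counts by region, which are a description. Without library 1 of HT29 ERβ, 3 bins of the members were listed in that group, and the genome's count fell with it from 4067 to 2129. Just inside the limits lay the DUOXA2 bin in SW480 ERβ at a mean of 2.04, and just outside lay the outer LCN2 bin at chr9:128149001-128149200 in the same group at 1.80.

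**Figure D1:**
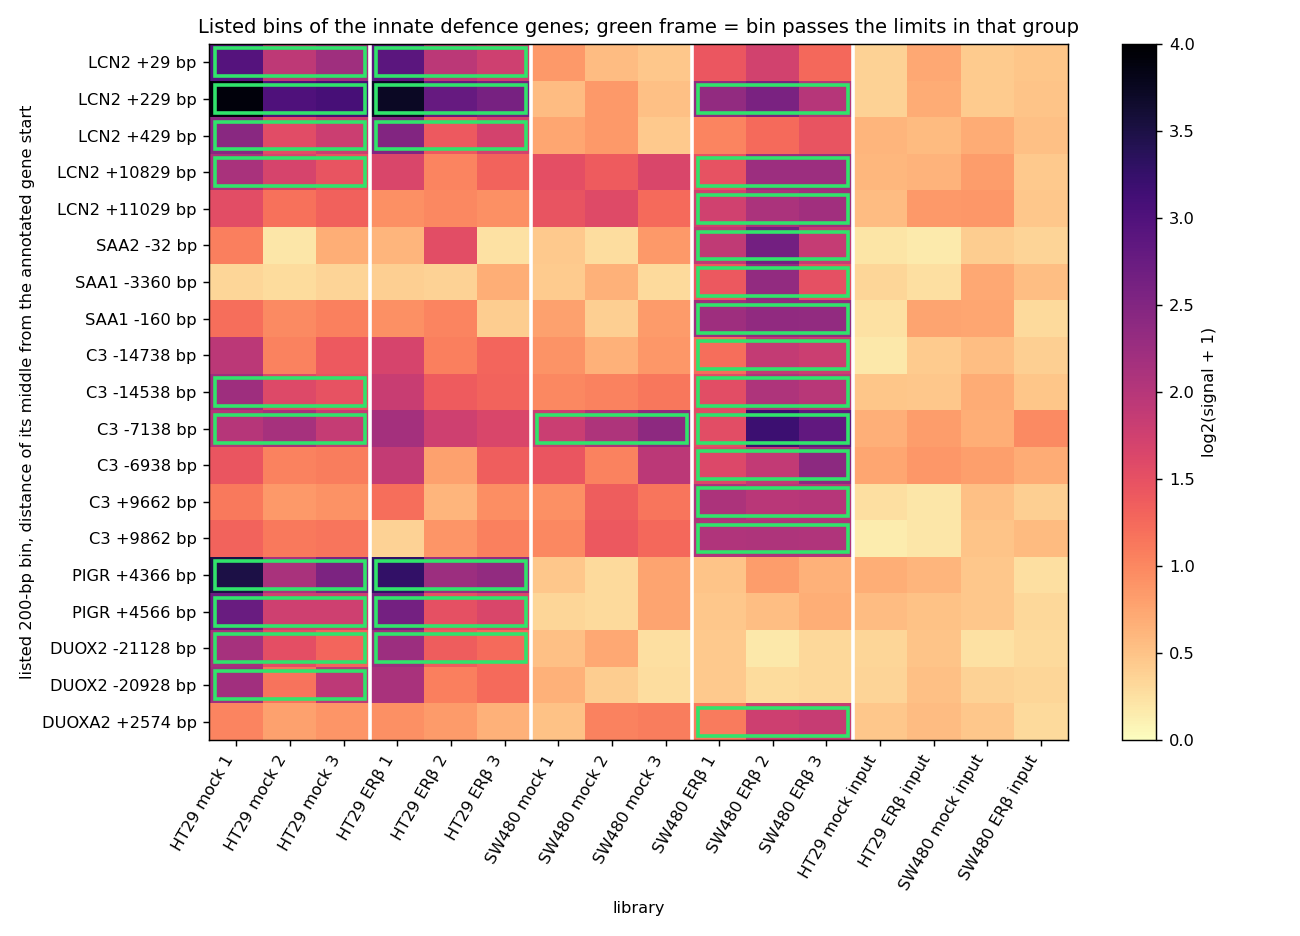
The 19 listed bins (rows, with the distance of the middle of the bin from the annotated gene start in bp) in the 12 ChIP and 4 input libraries (columns), coloured by log2(signal + 1); a green frame marks a group in which the bin was listed. PIGR and DUOX2 bins are dark in the HT29 groups only, the SAA1, SAA2 and C3 promoter bins in SW480 ERβ only, and the LCN2 promoter in all groups but SW480 mock.

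To compare groups, 1 bin per gene was taken, the one with the highest mean over the 12 ChIP libraries above the mean of the 4 inputs, a choice that does not use the groups. Differences are given on the log2(signal + 1) scale with standard errors, which understates the change of low values, and adjusted p-values are limma's with Benjamini-Hochberg adjustment over 19463 genes. Another 544 genes had no ChIP signal at that bin and were not tested, CFB among them. The 9 members tested hold 8 distinct bins, since SAA1 and SAA2 share their highest bin. The study's methods call the 3 libraries of a group biological replicates. The labels do not say whether they are separate cultures. The p-values rest on the spread between libraries within all 4 groups, which limma draws towards a trend fitted over the 19463 genes. They are thus not set by the scatter of the 3 against 3 libraries of a comparison alone. Library 1 was the highest of its group at 7 of the 8 bins in HT29 mock and at 6 in HT29 ERβ, and library 1 of SW480 ERβ was the lowest of its group at 5. The median of all genes differed by 0.26 between SW480 ERβ and SW480 mock, by 0.25 between SW480 ERβ and HT29 ERβ and by 0.36 for the difference of the ERβ effects, while it moved by under 0.1 in the other comparisons. Values rescaled so that this shift is about 0 are therefore given too.

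LCN2 encodes lipocalin 2, which binds bacterial siderophores and so withholds iron. It had the strongest signal of the 10 genes in both HT29 groups. Its highest bin (chr9:128149201-128149400) is centred 141 bp upstream of the nearest annotated start of an LCN2 transcript and holds the κB match shown above. The signal was 14.1, 7.03 and 7.47 in the HT29 mock libraries and 12.2, 5.82 and 5.07 in HT29 ERβ. It was 0.47, 0.80 and 0.43 in SW480 mock and 4.06, 4.95 and 3.00 in SW480 ERβ, with inputs between 0.29 and 0.62. The SW480 mock libraries thus lay near the input, and every SW480 ERβ library lay above every SW480 mock library and below every HT29 library. By mean signal the bin ranked 166 of 19463 in HT29 mock, 182 in HT29 ERβ, 13197 in SW480 mock and 2462 in SW480 ERβ.

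The LCN2 signal was 7.06-fold higher in SW480 ERβ than in SW480 mock by group means (log2 difference 1.66 ± 0.38 (SE), adjusted p = 0.00243, limma), and 1.39 after rescaling (adjusted p = 0.000578). The middle of the bin lies 229 bp downstream of the annotated gene start, so it is outside the window of 1 kb upstream to 100 bp downstream of that start which was read as an alternative, and there the difference was 0.39 and not called (adjusted p = 0.432, limma). It was lower in SW480 mock than in HT29 mock by a log2 difference of -2.69 ± 0.38 (adjusted p = 1.91e-06, limma). Between SW480 ERβ and HT29 ERβ the difference of -0.73 ± 0.38 was not called (adjusted p = 0.146, limma), although the groups did not overlap, and it was called after rescaling (-1.01, adjusted p = 0.00454). In HT29 the ERβ library was lower than the mock library of the same number in 3 of 3 pairs, the groups overlapped, and the difference was not called (-0.30 ± 0.38, adjusted p = 1, or 0.783 with the library number as a replicate block, limma). The ERβ effect was larger in SW480 than in HT29 by 1.97 ± 0.54 (adjusted p = 0.0269, limma). That call was lost when any 1 of 8 libraries was left out (adjusted p = 0.061 to 0.124), namely HT29 mock 1, HT29 ERβ 2 or 3, any SW480 mock library and SW480 ERβ 2 or 3. With the library number as a replicate block the adjusted p was 1.34e-05.

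The outer bins of the LCN2 region followed the same order. At chr9:128149401-128149600, within LCN2, the means were 2.92 ± 1.29 (SD, n = 3) in HT29 mock, 2.85 ± 1.57 in HT29 ERβ, 0.619 ± 0.229 in SW480 mock and 1.38 ± 0.36 in SW480 ERβ. The other listed region of the LCN2 window (chr9:128159801-128160200) lies near the start of BBLN, 265 bp upstream of it, and showed another pattern. Its signal was 1.81, 1.80 and 1.76 in SW480 mock and 2.05, 3.50 and 3.64 in SW480 ERβ. In HT29 it was 2.61, 1.72 and 1.62 in mock and 1.53, 1.02 and 1.18 in ERβ. No κB match was found there.

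SAA1 and SAA2 encode the acute-phase serum amyloid A proteins, and SAA1 lies next to SAA2 on the opposite strand. Their windows held 3 listed bins, all listed in SW480 ERβ alone. The highest was the SAA1 promoter bin, centred 160 bp upstream of the SAA1 start. It reached 3.67, 4.08 and 4.05 in SW480 ERβ. The other libraries lay between 0.31 and 1.30, among them 0.73, 0.31 and 0.79 in SW480 mock and 1.30, 0.97 and 1.09 in HT29 mock. Inputs were 0.18 to 0.70, so the SW480 mock and HT29 ERβ libraries were not all above them.

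The SAA1 promoter signal was 6.45-fold higher in SW480 ERβ than in SW480 mock (log2 difference 1.63 ± 0.26, adjusted p = 2.02e-05, limma) and 5.21-fold higher than in HT29 ERβ (1.51 ± 0.26, adjusted p = 1.07e-05, limma). After rescaling these differences were 1.35 and 1.23, both still called. The ERβ effect was larger in SW480 than in HT29 by 1.92 ± 0.37 (adjusted p = 0.00142, limma), and this was called without each of the 12 libraries in turn, with adjusted p up to 0.0197. In the same alternative window at SAA1 that difference was 0.93 and not called (adjusted p = 0.0915, limma), while ERβ against mock in SW480 was still called (0.82, adjusted p = 0.0242, limma). The fit of that window called no gene at all for the difference of the effects. The mock lines did not differ at the threshold (-0.41 ± 0.26, adjusted p = 0.305, limma).

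The SAA2 promoter bin, which spans the SAA2 start, gave 2.71, 5.25 and 2.60 in SW480 ERβ, 0.36, 0.21 and 0.81 in SW480 mock, 1.09, 0.14 and 0.61 in HT29 mock and 0.54, 1.92 and 0.18 in HT29 ERβ. The SW480 ERβ libraries were the highest of the 12, and 1 HT29 ERβ library stood apart from its group. The third bin (chr11:18262801-18263000) lies 3360 bp upstream of SAA1 in the processed pseudogene ST13P5 and gave 1.67, 4.05 and 1.85 in SW480 ERβ and at most 0.61 elsewhere. SAA1 and SAA2 are close paralogs and only reads with a unique position were mapped, so the split of signal between them is uncertain.

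**Figure D2:**
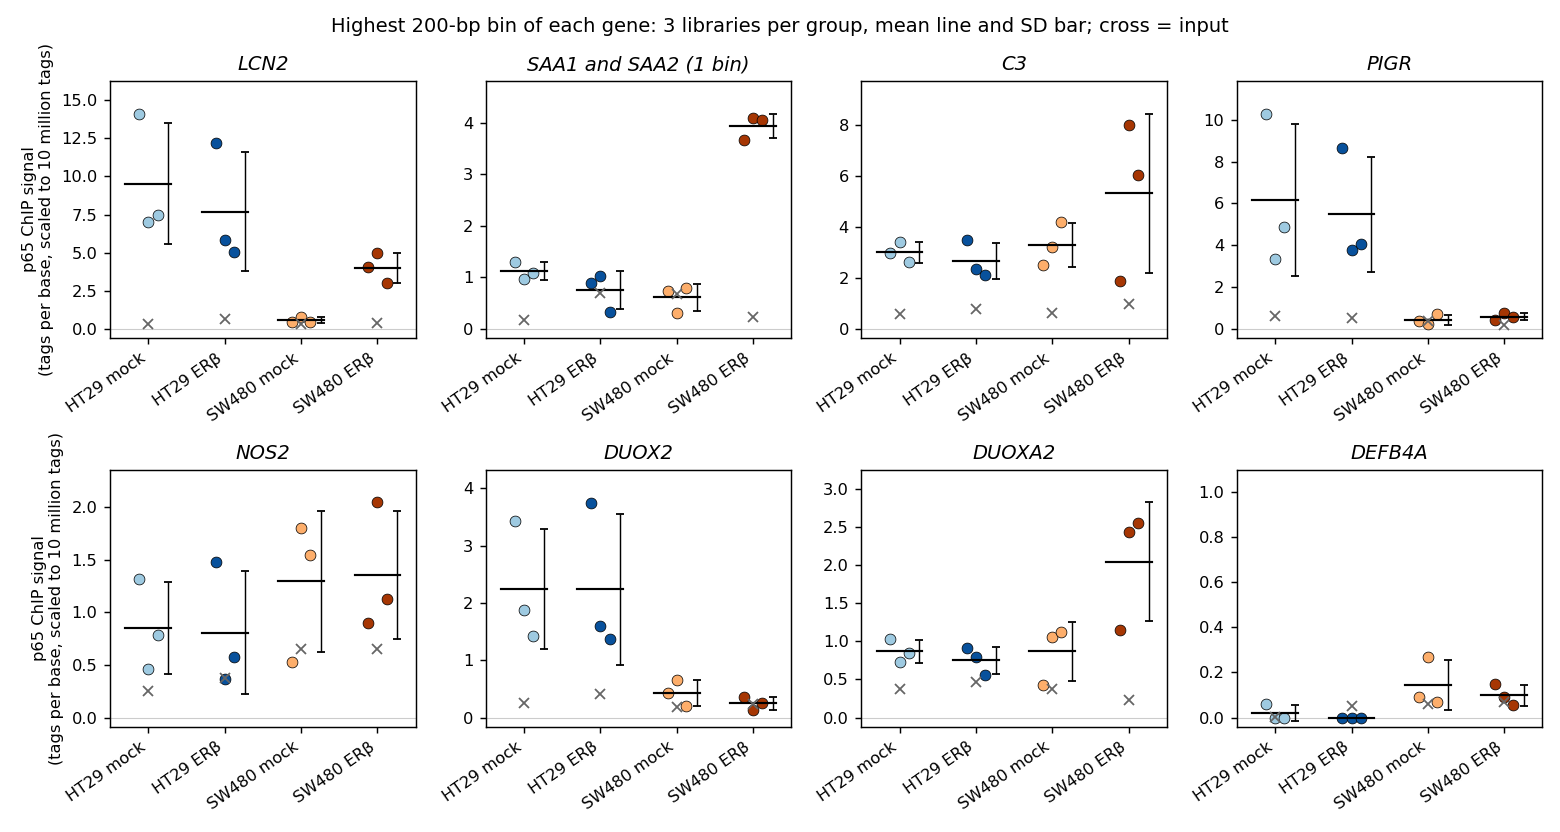
ChIP signal at the highest 200-bp bin of each gene (y axis, tags per base, scaled to 10000000 tags) in the 3 libraries of each group (points), with the mean (line), SD (bar) and input (cross). LCN2, PIGR and DUOX2 sit high in HT29, the bin of SAA1 and SAA2 sits between 3.67 and 4.08 in SW480 ERβ alone, and DEFB4A is near 0 throughout.

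C3 encodes the central component of complement, and its window held 6 listed bins in 3 regions. Its promoter (chr19:6720601-6721000), centred 119 bp upstream of the nearest annotated start of a C3 transcript and with a κB match, was listed in SW480 ERβ alone. There the signal over the 400 bp was 3.20, 3.05 and 3.08 in SW480 ERβ. It was 0.95, 1.62 and 1.30 in SW480 mock, 1.33, 0.99 and 1.05 in HT29 mock and 0.81, 0.68 and 1.00 in HT29 ERβ. Every library of the other groups lay below the SW480 ERβ libraries and above its own input, which ranged from 0.15 to 0.42. Because the promoter entered the list through the SW480 ERβ values alone, no test is given for it.

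The highest bin of the C3 window was not at C3 but at the promoter of its neighbour GPR108 (chr19:6737601-6737800), 7138 bp upstream of the annotated C3 start, and it was the only bin of the 19 listed in SW480 mock. Its signal was 2.97, 3.41 and 2.62 in HT29 mock, 3.48, 2.37 and 2.13 in HT29 ERβ, 2.51, 3.20 and 4.21 in SW480 mock and 1.89, 8.03 and 6.06 in SW480 ERβ. The groups overlapped in every comparison and none was called (adjusted p from 0.188 to 1, limma). Without SW480 ERβ library 1, the lowest of the 12, the difference between SW480 ERβ and HT29 ERβ was 1.14 (adjusted p = 0.0144, limma). That fit called 30% of all genes higher in this comparison. No κB match was found in the GPR108 region. The third region of the window lies in TRIP10 (chr19:6745001-6745400), with bins centred 14538 and 14738 bp upstream of the annotated C3 start, and holds 5 κB matches, overlapping ones counted, and 1 AP-1 match. It gave 3.25, 1.55 and 1.72 in HT29 mock, 2.37, 1.35 and 1.45 in HT29 ERβ, 0.93, 0.82 and 1.01 in SW480 mock and 1.62, 2.93 and 2.70 in SW480 ERβ.

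**Figure D3:**
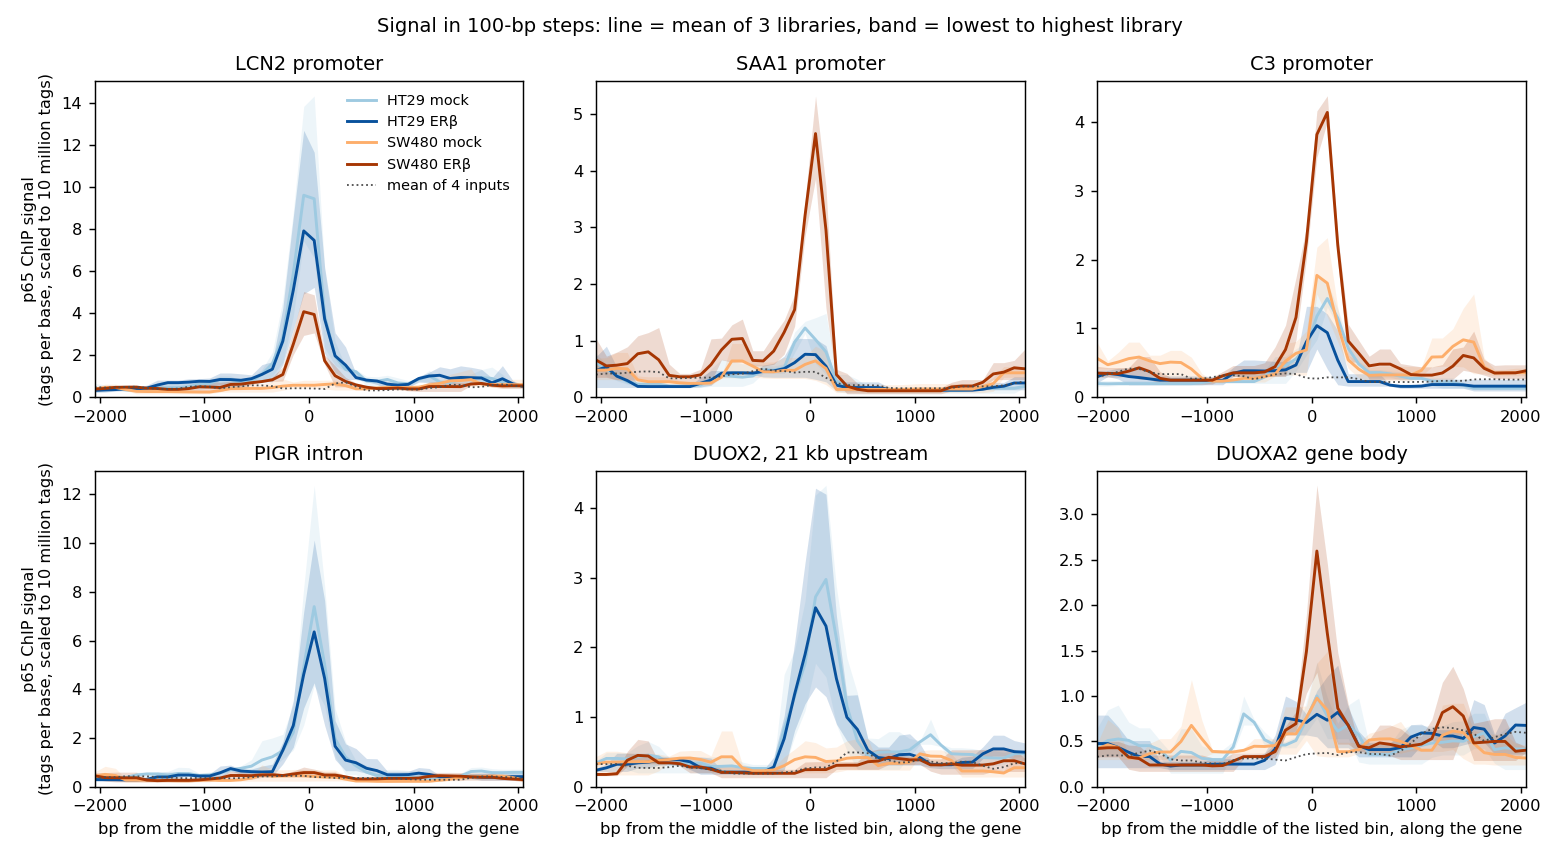
Mean ChIP signal (y axis, tags per base, scaled to 10000000 tags) in 100-bp steps within 2 kb of the middle of 6 listed bins (x axis, bp along the gene), as the mean of 3 libraries (line) and their range (band), with the mean of the 4 inputs (dotted). LCN2 shows a peak in both HT29 groups and a lower one in SW480 ERβ, SAA1, C3 and DUOXA2 show their main peak in SW480 ERβ, and PIGR and the region upstream of DUOX2 show one in the HT29 groups only.

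CFB, the complement factor B gene, could not be measured. All 232 bins of its window were at 0 in the 16 tracks, inputs included, inside a stretch without signal of 1062500 bp (chr6:31471501-32534000). The tracks name 16 alternate haplotype sequences of chromosome 6, and the authors kept uniquely mapped reads. Their part in the gap was not tested. DEFB4A, which encodes the antimicrobial peptide beta-defensin 2, was in a similar position, with 62.1% of its 211 bins at 0 in all tracks and 13 alternate sequences of chromosome 8 named in them. At its highest bin no library passed 0.27, and no comparison was called.

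PIGR encodes the polymeric immunoglobulin receptor, which carries IgA and IgM across the epithelium. Its listed region (chr1:206941801-206942200) lies in an intron, with its highest bin 4366 bp downstream of the annotated gene start, and was listed in both HT29 groups. At the highest bin the signal was 10.3, 3.34 and 4.85 in HT29 mock and 8.65, 3.75 and 4.06 in HT29 ERβ. In SW480 it was 0.38, 0.23 and 0.70 in mock and 0.41, 0.77 and 0.57 in ERβ, against inputs of 0.19 to 0.61. The 2 cell lines did not overlap. The SW480 mock libraries lay on both sides of their input of 0.37, and each SW480 ERβ library lay above its input of 0.19.

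The PIGR signal was 14.1-fold higher in HT29 mock than in SW480 mock (log2 difference SW480 minus HT29 -2.21 ± 0.34, adjusted p = 6.02e-06, limma) and 9.41-fold higher in HT29 ERβ than in SW480 ERβ (-1.96 ± 0.34, adjusted p = 1.04e-05, limma). Both calls held without each library in turn and after rescaling. ERβ against mock gave -0.10 ± 0.34 in HT29 and 0.15 ± 0.34 in SW480, and neither was called. In the window at the annotated PIGR start, which does not hold this bin, the difference between the mock lines was -0.05 (adjusted p = 0.729, limma).

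NOS2 encodes inducible nitric oxide synthase, and none of the 419 bins of its window was listed. Its highest bin lies near the end of the gene, and the libraries there ranged from 0.37 to 2.05 with overlapping groups. No comparison was called, and the largest difference was 0.40 ± 0.26 (SW480 ERβ minus HT29 ERβ, adjusted p = 0.246, limma). With the grid of bins moved by 100 bp that difference was 0.72 (adjusted p = 0.0348, limma), in a fit that called 24.8% of all genes higher.

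DUOX2 is the oxidase that releases hydrogen peroxide at the apical surface of epithelial cells, and DUOXA2 is the factor it needs to mature. The genes lie head to head and the windows overlap. The highest bin of DUOX2 (chr15:45135201-45135400) lies 21128 bp upstream, within DUOX1, and its region spans a coding exon of that gene. It gave 3.42, 1.88 and 1.43 in HT29 mock, 3.75, 1.59 and 1.36 in HT29 ERβ, 0.43, 0.65 and 0.20 in SW480 mock and 0.36, 0.13 and 0.25 in SW480 ERβ. All SW480 libraries lay below all HT29 libraries. The signal was lower in SW480 mock than in HT29 mock (-1.15 ± 0.25, adjusted p = 0.00104, limma) and in SW480 ERβ than in HT29 ERβ (-1.31 ± 0.25, adjusted p = 8.39e-05, limma), and neither call was lost without 1 library. In the window at the annotated DUOX2 start, which does not hold this bin, these differences were -0.04 and -0.03 (adjusted p = 0.8 and 0.89, limma). Which of the neighbouring genes this region serves was not tested.

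The DUOXA2 bin (chr15:45116801-45117000) lies in the gene, 2426 bp downstream of the nearest annotated start of a DUOXA2 transcript, and was listed in SW480 ERβ alone. Its signal was 1.15, 2.43 and 2.56 in SW480 ERβ, 0.43, 1.06 and 1.12 in SW480 mock, 1.03, 0.73 and 0.85 in HT29 mock and 0.91, 0.79 and 0.56 in HT29 ERβ. The lowest SW480 ERβ library lay just above the highest library of every other group. The difference from HT29 ERβ was called (0.76 ± 0.24, adjusted p = 0.0143, limma), but not after rescaling (0.48, adjusted p = 0.0756), in a fit of these 6 libraries alone (adjusted p = 0.0562) or without HT29 ERβ 3 (0.68), SW480 ERβ 2 (0.66) or SW480 ERβ 3 (0.63). The difference from SW480 mock was not called (0.69 ± 0.24, adjusted p = 0.0572, limma). It was called with the replicate block (adjusted p = 0.00543), after subtraction of the input (0.91, adjusted p = 0.0304), among genes with a mean of at least 1 (adjusted p = 0.0322) and without SW480 ERβ 1 (0.92, adjusted p = 0.00756), as it was without HT29 ERβ 1 (adjusted p = 0.0461). These 5 fits called 28.8%, 25.5%, 24.2%, 22.2% and 13.6% of all genes tested as higher, against 10.5% in the reported fit. The larger ERβ effect in SW480 than in HT29 (0.79 ± 0.34) had an adjusted p of 0.177, or 0.0294 with the replicate block, a fit that called 23.9% of all genes as higher in this comparison, and 0.0402 without SW480 ERβ 1.

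**Figure D4:**
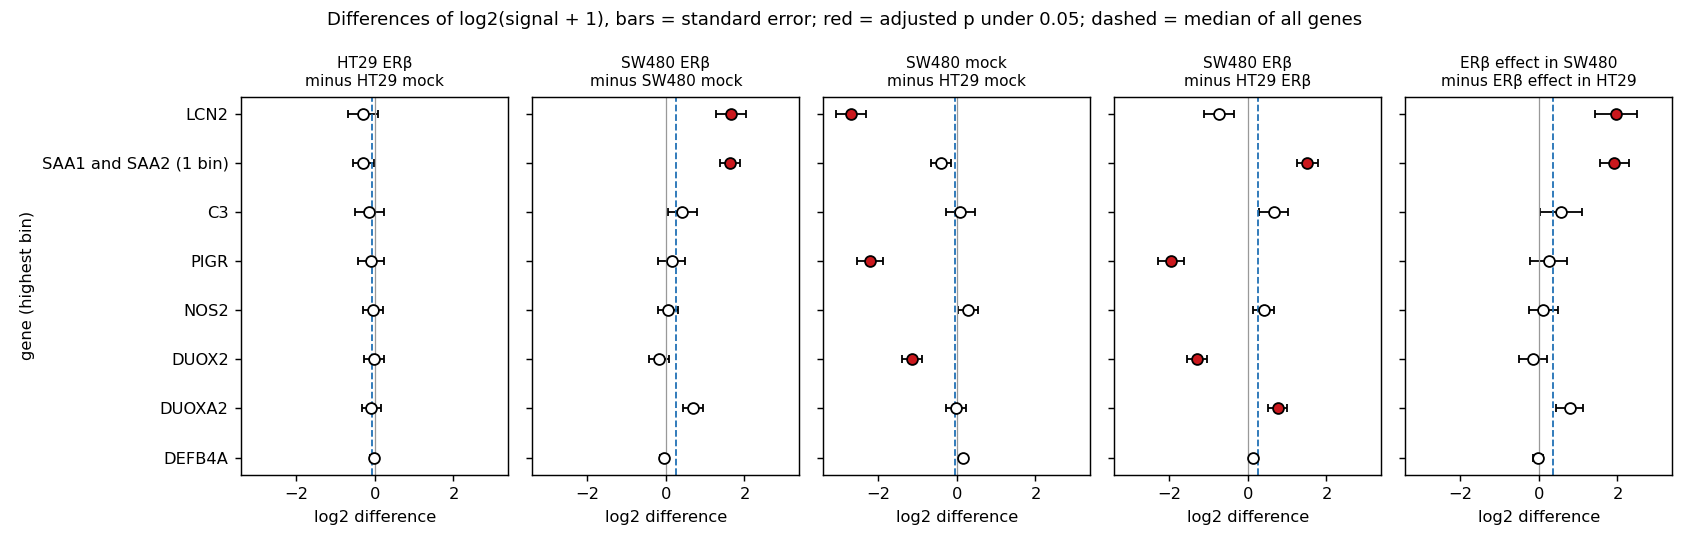
Differences of log2(signal + 1) at the highest bin (x axis, points, with standard errors) for each gene and comparison; red points have an adjusted p under 0.05 and the dashed line is the median of all genes. LCN2 and the bin of SAA1 and SAA2 lie at 1.66 and 1.63 for ERβ against mock in SW480, and PIGR and DUOX2 lie below 0 in both comparisons of SW480 with HT29.

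Counted over the 9 members tested, ERβ against mock in HT29 gave no call in either direction (limma with Benjamini-Hochberg adjustment), and none had an unadjusted p under 0.05. Over all genes 0% were called higher and 0% lower in this comparison, with 556 of 19463 under an unadjusted p of 0.05. In SW480, ERβ against mock gave 3 higher (LCN2, SAA1 and SAA2, which are 2 distinct bins) and 0 lower, against 10.5% higher and 0.139% lower of all genes. After rescaling the same 3 were called, against 6.25% and 2.14%. With the replicate block, DUOXA2 was the fourth, against 28.8% of all genes called higher. SW480 mock against HT29 mock gave 0 higher and 3 lower (LCN2, PIGR and DUOX2), against 5.88% and 10.7%. SW480 ERβ against HT29 ERβ gave 3 higher (SAA1, SAA2 and DUOXA2) and 2 lower (PIGR and DUOX2), against 24.1% and 4.64%. After rescaling DUOXA2 was lost and LCN2 gained as lower, which gave 2 higher and 3 lower against 15.1% and 13.8% of all genes. The ERβ effect was larger in SW480 for 3 (LCN2, SAA1 and SAA2) and smaller for 0, against 3.56% and 0.0103%, and the same 3 were called after rescaling, against 1.85% and 0.319%. The comparisons share groups, so they are not independent. The median difference of the 9 members was -0.10, 0.42, -0.41, 0.40 and 0.56 in these 5 comparisons, beside -0.08, 0.26, -0.06, 0.25 and 0.36 over all genes. The bin shared by SAA1 and SAA2 is counted for both genes in each median of the members, so no excess over all genes is read from them.

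Groups of 3 libraries that did not overlap were found for none of the 9 members between HT29 ERβ and HT29 mock, against 2.16% of all genes with every ERβ library higher and 4.42% with every one lower. Between SW480 ERβ and SW480 mock this held for 4 higher (LCN2, SAA1, SAA2 and DUOXA2) and 0 lower, against 27.6% and 1.83%. The bin shared by SAA1 and SAA2 is counted for both genes here and in the counts that follow. SW480 mock lay above HT29 mock at DEFB4A alone, against 14% of all genes, with values of 0.09, 0.27 and 0.07 against 0.06, 0 and 0 that are at the floor of the tracks. It lay below HT29 mock at 5 (LCN2, SAA1, SAA2, PIGR and DUOX2), against 20.7%. SW480 ERβ lay above HT29 ERβ at 4 (SAA1, SAA2, DUOXA2 and DEFB4A, the last again at the floor with every HT29 ERβ library at 0), against 28.8%, and below it at 3 (LCN2, PIGR and DUOX2), against 7.29%.

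The 19 listed bins were also fitted together with all 12570 listed bins. Since a bin is listed for a high group, these counts follow in part from the listing, and they are given as a description. Of the 19, 9 were listed in SW480 ERβ alone, so the counts are no test of ERβ in SW480. For ERβ against mock in SW480, 10 of 19 were called higher against 37.1% of the 12570, and 3 after rescaling, against 3.64%. Leaving out SW480 mock 1 gave 4, against 20.6%, and leaving out SW480 ERβ 2 or SW480 ERβ 3 gave 5, against 19.4% and 20.4%. None was called in HT29, against 0% in both directions, with 0 of 19 under an unadjusted p of 0.05. SW480 mock against HT29 mock had 7 lower and 0 higher, against 27.1% and 10.6%. SW480 ERβ against HT29 ERβ had 7 higher and 4 lower, against 45.6% and 11.4%. Rescaling changed these shares of the 12570 to 26.4% higher and 27.1% lower between the mock lines. Between the ERβ lines they became 27.5% higher and 29.6% lower. The directions of the members' bins after rescaling are not given for the line comparisons. The ERβ effect was larger in SW480 at 5, against 19.2%, and at 0 after rescaling, against 0.485%. It was larger at 12 with the replicate block, at 11 without HT29 ERβ 1 and at 10 without SW480 ERβ 1, in fits that called 65.5%, 48.3% and 41.2% of the 12570.

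A wider list of 60 mucosal defence genes was read in the same way, of which 59 were tested and C2, without ChIP signal, was not. ERβ against mock was higher for 6 and lower for 1 in SW480, beside 10.5% and 0.139% of all genes, and no gene was called in HT29, beside 0%. After rescaling the counts in SW480 were 5 and 3, beside 6.25% and 2.14%, and with the replicate block 16 and 3, beside 28.8% and 0.385%. SW480 mock was higher than HT29 mock at 5 and lower at 12, beside 5.88% and 10.7% of all genes, and after rescaling at 8 and 12, beside 9.94% and 12.1%. SW480 ERβ was higher than HT29 ERβ at 15 and lower at 6, beside 24.1% and 4.64%, and after rescaling at 11 and 10, beside 15.1% and 13.8%. The ERβ effect was larger in SW480 for 3 genes, SAA4, BPI and NOX1, beside 3.56% of all genes. After rescaling NOX1 was lost and DEFA6 and S100A8 were called smaller, which gave 2 larger and 2 smaller, beside 1.85% and 0.319%, and the replicate block gave 9 and 1, beside 23.9% and 0.2%. Counts near these shares are no result about the list. They are counts of genes, and neighbouring genes with overlapping windows can have the same highest bin. The number of distinct bins in this list was not counted. The medians of the 59 genes were -0.06, 0.21, -0.11, 0.19 and 0.36, close to those of all genes.

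The genes of this list with the largest differences were BPI, PI3, SAA4, CD55, NOX1 and DUOXA1, of which SAA4 and DUOXA1 have the bins already described for SAA1 and DUOX2 as their highest. BPI encodes a protein that binds bacterial endotoxin. Its bin 16850 bp upstream had a mean of 7.74 ± 1.80 (SD, n = 3) in SW480 ERβ, 1.28 ± 0.33 in SW480 mock and 0.485 ± 0.146 in HT29 mock (ERβ against mock in SW480 1.93 ± 0.28, adjusted p = 2.72e-06, limma). NOX1, the colon NADPH oxidase, had 2.06 ± 0.63 in SW480 ERβ against 0.243 ± 0.067 in SW480 mock (1.28 ± 0.25, adjusted p = 0.000477, limma). PI3, which encodes the protease inhibitor elafin, had 4.89 ± 2.87 at its promoter in HT29 mock against 0.437 ± 0.145 in SW480 mock (-1.93 ± 0.32, adjusted p = 2.5e-05, limma). CD55, a membrane inhibitor of complement, had 3.64 ± 1.87 in HT29 mock and 3.26 ± 2.11 in HT29 ERβ, 4819 bp upstream, against 0.42 in both SW480 groups.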

How the data were processed

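The deposited files were 16 genome tracks, 12 of p65 ChIP (3 for each of 4 groups) and 4 of input. Per the study's methods, the authors mapped unique reads to GRCh38 with STAR and used HOMER. The deposited values are signal, the tag density per base that the authors scaled to 10000000 tags with fragments of 100 bp, given in segments with a median length of 392 to 602 bp, and stretches under 0.05 are not listed. They hold no read counts, so limma on log2(signal + 1) replaced the authors' edgeR test. The paper reports the mapped reads per sample, which were not used here.

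Signal was averaged over 200-bp bins with Python 3.11.15. Genes were taken from GENCODE release 44. limma 3.58.1 (R 4.3.3) with a mean trend was fitted to the 12 ChIP libraries and 5 contrasts of the 4 groups, an adjusted p under 0.05 being called. The fit was tested on simulated data. Genes without ChIP signal were left out, a choice made after seeing the data. The genes, lists and tests were chosen with earlier results of these data known. Named were all 10 members and, of the wider list, at most 6 genes with the largest called difference.

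Same-numbered libraries of a line deviated together over 9132 genes (r = 0.166 to 0.488 in HT29, 0.134 to 0.332 in SW480), which met the limit of 0.1 set for pairing the ERβ and mock libraries of a line. In SW480 every other pair of libraries had a lower r, at most 0.05. In HT29, however, mock 2 went further with ERβ 3 (0.211) than with ERβ 2, so there the values set library 1 apart from 2 and 3 more than they pair each number. Between lines r was -0.148 to -0.002 and they share only a number. The reported fits did not use the pairing, also in SW480, and the replicate block that used it is given as an alternative. For ERβ against mock in SW480 it called 28.8% of all genes higher, against 10.5% in the reported fit. Alternatives were a pseudocount of 0.5, median-ratio rescaling, subtraction of the input, a replicate block, 6 libraries, a minimum mean of 1, the promoter (1 kb upstream to 100 bp downstream), a moved grid, stricter limits (3, or 6 times the input) and leaving out each library. The sequences of the SAA regions are not reported here.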

Additional observations from a re-analysis of the deposited data

Results flagged for a closer look

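The effect of ERβ differed between the cell lines at LCN2, SAA1 and SAA2, by the test of that difference itself (limma with Benjamini-Hochberg adjustment over all genes). At the LCN2 promoter the log2 difference between the effects was 1.97, and each of the 3 SW480 ERβ libraries lay above the 3 SW480 mock libraries while the HT29 libraries overlapped. At SAA1 and SAA2 it was 1.92, with the same order of libraries, and this is 1 shared bin and not 2 results. In the same comparison 3.56% of all genes were called higher, and the median of all genes was 0.36. The LCN2 call was lost when any 1 of 8 libraries was left out (adjusted p = 0.061 to 0.124, limma) and with the grid moved (adjusted p = 0.0558), while the call at the shared SAA1 and SAA2 bin held without each of the 12 libraries. In the window at the annotated start neither LCN2 (adjusted p = 0.657) nor SAA1 (adjusted p = 0.0915) nor SAA2 (adjusted p = 0.517) was called. The fit of that window called no gene at all in this comparison, so this is no result about these members.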

How the results depend on the processing

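Reading the window at the annotated gene start in place of the highest bin left 1 call for ERβ against mock in SW480 (SAA1, against 0.0873% of all genes called higher), 2 for SW480 ERβ against HT29 ERβ (SAA1 and SAA2, against 21.2%) and 0 for the difference of the ERβ effects. For that difference no gene at all was called in this fit. Between the mock lines the count stayed at 3 but not with the same genes. LCN2 was still called lower (2.82% of all genes), PIGR and DUOX2 were lost, and C3 (0.31, adjusted p = 0.0217, limma) and DEFB4A (0.10, adjusted p = 0.0475, limma) were called higher (12.9%). The C3 window lies at its annotated start, 9662 bp or more from the middle of the listed C3 promoter bins, where the mock lines overlapped. Under the other alternatives these counts were within 1.5 times the reported ones. Leaving out 1 library gave 3 to 4 calls for ERβ in SW480, 4 to 6 between the ERβ lines and 2 to 4 for the difference of the effects, in fits that called 3.76% to 22.2%, 15.7% to 30% and 0.519% to 12.6% of all genes higher. Of the calls between the ERβ lines, 2 were lower in each of these fits (PIGR and DUOX2), against 3.18% to 5.23% of all genes called lower. For the listed bins, leaving out 1 library gave 4 to 12 calls for ERβ against mock in SW480 (12 without SW480 ERβ 1, against 55.1% of all listed bins). It gave 4 to 11 for the difference of the effects, in fits that called 8.53% to 48.3% of all listed bins higher. Rescaling gave 3 and 0, and the replicate block gave 12 for the latter. Per group, a mean of at least 3 left 5 listed bins in HT29 mock (genome 3317 of 6123), and at least 6 times the input left 3 in HT29 ERβ (genome 2331 of 4067) and 0 in SW480 mock (genome 764 of 1499). Leaving out 1 library gave 3 to 9 bins in HT29 ERβ. The cause of these changes was not tested.

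Direction turned for that window at DUOXA2 for ERβ against mock in SW480 (-0.0111) and at NOS2 between the ERβ lines (-0.0283). For C3 between the mock lines, leaving out 1 library gave -0.0558 (without SW480 mock 3) to 0.2303. The 24 differences that passed in no fit changed sign in 41 of 495 alternative values. The call for LCN2 in the difference of the effects was also lost with the grid moved (adjusted p = 0.0558) and with genes without signal kept in the limma fit (adjusted p = 0.0711). After rescaling, all-gene calls moved from 2041 higher and 27 lower to 1216 and 417 for ERβ in SW480, from 4700 and 903 to 2948 and 2693 between the ERβ lines, and from 1144 and 2085 to 1935 and 2363 between the mock lines. The replicate block raised them to 5608 and 75 for ERβ in SW480 and to 4645 and 39 for the difference of the effects, and changed no call at a highest bin of a member other than DUOXA2. The tracks give no depth. The mapped reads that the paper reports per sample were not used, so no limit from counting error was computed.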
